A study of Mus musculus with 6 samples.

Results

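The insulin-like growth factor (IGF) binding proteins and their neighbours in the pathway were examined in 2 mouse melanoma cell lines. The set has 10 genes: the ligand gene Igf1, the binding protein genes Igfbp1 to Igfbp7, and the insulin receptor substrate genes Irs1 and Irs2. They were taken by symbol through the transcript accession given for each probe, and 15 of the 39429 probes matched, covering all 10 members of 20659 genes with a probe. The lines were B16-F1, derived from a skin tumour of C57BL/6 mice, and D5.1G4, which the labels describe only as a melanoma line and which the series text takes as the reference. Neither line was treated. Both were seeded at 1000000 cells to a well, kept for 24 h with 10% fetal bovine serum (RPMI-1640 as the medium) and harvested at a confluence of 75% to 95%. Each line was measured on 3 one-colour Agilent arrays. Nothing says that the 3 samples of a line came from separate cultures. The p-values therefore set the difference between the lines against a variation among samples that may be technical.

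Insulin-like growth factors are small secreted hormones that signal through the receptor tyrosine kinase Igf1r. In the blood and around cells most IGF is held by the IGF-binding proteins, which can keep it from the receptor or carry it there, and proteases release it by cutting them. Inside the cell the activated receptor phosphorylates the docking proteins Irs1 and Irs2, which recruit PI3-kinase and so feed the AKT and mTOR branch of growth control. Melanocytic cells are known to respond to IGF as a growth and survival factor.

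A signal is given here as log2 of the background-subtracted spot intensity minus the 75th percentile of its array, so 0 is a bright spot and values near -7 are at the floor. A probe was called detected where the scanner software marked its spot as well above background. The lowest detected signal was -5.50, -5.73 and -6.17 on B16-F1 replicates 1, 2 and 3. On D5.1G4 replicates 1, 2 and 3 it was -5.10, -5.09 and -5.21, so on this scale it lay lower in B16-F1. The share of spots detected ran from 53.4% to 62.0%. The 2 arrays with the most, B16-F1 replicates 2 and 3, were scanned together, B16-F1 replicate 1 shared its scan with D5.1G4 replicates 2 and 3, and D5.1G4 replicate 1 was scanned alone. All 7 melanocyte markers (Mitf, Sox10, Tyr, Tyrp1, Dct, Pmel, Mlana) were detected on all 6 arrays. Of the fibroblast markers Col3a1, Dcn, Pdgfra and Thy1 were detected on 0 arrays and Lum on 1. Of the other markers the epithelial Epcam, Krt8 and Krt18 and the endothelial Cdh5 and Tie1 were detected on 0 arrays, while Krt5, Kdr, Pecam1, Vwf, Csf1r and Itgam were detected on all 6, Adgre1 on 5, Cdh1 on 3 and Ptprc, the pan-leukocyte gene, on 2. The summed signal of the macrophage and leukocyte list, as a multiple of the 75th percentile of the array, ran from 0.653 to 1.84 in B16-F1 and from 0.667 to 1.60 in D5.1G4, and the ranges for the endothelial list (0.751 to 1.55 and 0.869 to 0.944), the epithelial list (0.105 to 0.201 and 0.130 to 0.181) and the fibroblast list (0.0290 to 0.0928 and 0.0363 to 0.0469) overlapped between the lines in the same way. That of the melanocyte list did not, at 448 to 565 in B16-F1 and 567 to 794 in D5.1G4. None of its 7 genes was called, although Tyr (0.78, limma adjusted p = 0.00578) and Mlana (-0.68, adjusted p = 0.0247) passed the adjusted p alone, in opposite directions. Among all the markers Cdh1 alone was called, at least 2.42-fold lower in B16-F1 (limma adjusted p = 0.000679). It was detected on 0 B16-F1 arrays and all 3 D5.1G4 arrays, and this bound was not tried under other processing. The part that these signals have in the values below was not tested, and values within the shared scan are given for some of the genes.

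Few of the binding protein genes gave a measurable signal. Of the 7 binding protein genes, Igfbp4 and Igfbp6 were detected on all 6 arrays, and both signals were higher in B16-F1. Irs1 and Irs2 were detected in both lines, and Igf1 weakly. Of the 10 members, 5 were detected on at least 3 arrays and were tested (Igf1, Igfbp4, Igfbp6, Irs1 and Irs2), and 1 of them, Igfbp4, was called, meaning a limma adjusted p of at most 0.05 together with a 2-fold or larger change. Over all 18442 features in the same fit 15.2% were called, of which those with the higher signal in B16-F1 made 6.28% of the features and those with the lower 8.89%, so 1 member was higher and 0 were lower. At an unadjusted p under 0.05 there were 2 higher and 1 lower among the 5, against 44.9% of all features in either direction. By adjusted p alone 2 of the 5 members passed, against 34.9% of all features. Of the 4 members tested that were measured on every array, 2 had no overlap between the lines, against 50.7% of all such features. These shares of so few genes do not set the family apart. The plot of every member probe shows the division between the few bright probes and the many at the floor.

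**Figure D1:**
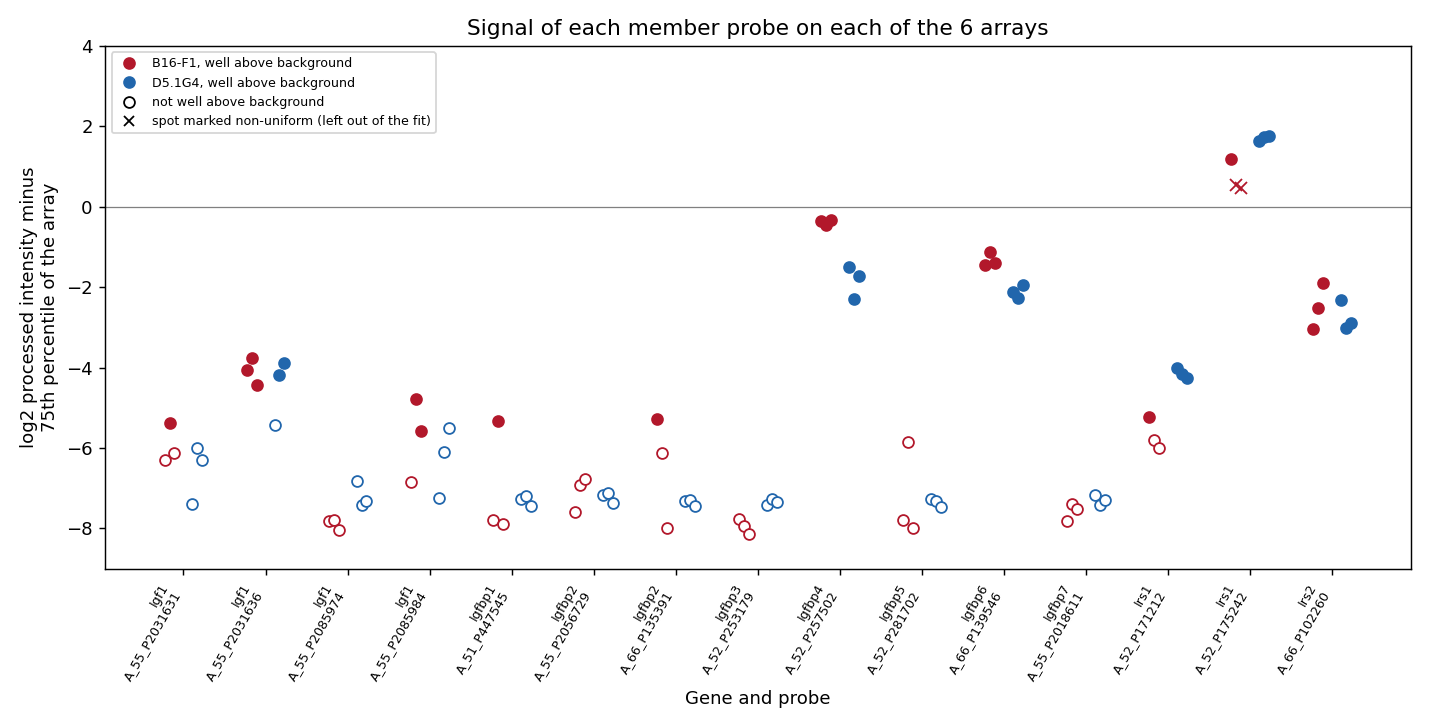
Log2 processed intensity minus the 75th percentile of the array (vertical axis) for each of the 15 member probes (horizontal axis) on the 3 B16-F1 arrays (red) and 3 D5.1G4 arrays (blue); filled points were well above background, open points were not, and crosses are spots marked non-uniform. Igfbp4 and Igfbp6 are filled on all 6 arrays with the B16-F1 points above the D5.1G4 points, while Igfbp3, Igfbp5 and Igfbp7 are open on all 6.

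Igfbp4 encodes a small binding protein that inhibits IGF action and is cut by the protease Pappa. Its probe A_52_P257502 read -0.37, -0.45 and -0.33 on the B16-F1 arrays (replicates 1, 2 and 3) and -1.49, -2.29 and -1.71 on those of D5.1G4 in the same order. The B16-F1 arrays lay close together and all above the D5.1G4 arrays, of which replicate 2 was lowest. In processed intensity, before arrays were set on one scale, the B16-F1 spots read 1119, 992.3 and 1622 and the D5.1G4 spots 652.7, 171.0 and 299.4. The means were -0.38 ± 0.06 (SD, n = 3) and -1.83 ± 0.42 (SD, n = 3), so the B16-F1 signal was 2.73 times as bright (difference of 1.45 on the log2 scale, SE 0.22, 95% confidence interval 0.92 to 1.98, limma adjusted p = 0.00391). In such bulk RNA, fewer cells that express a gene and less of its RNA per cell cannot be told apart. Within the scan that held both lines, with B16-F1 replicate 1 alone for its line, the difference was 1.64. With scan as a block it was 1.64 as well, because each of the other scans held a single line. For every gene here the block fit takes its line difference from that shared scan, so it is no separate check. Without the 2 arrays of scan 1 the difference of 1.47 no longer passed (limma adjusted p = 0.0697).

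Igfbp6 encodes the binding protein that prefers IGF-II over IGF-I. Its probe A_66_P139546 read -1.45, -1.13 and -1.40 on the B16-F1 arrays and -2.13, -2.26 and -1.94 on the D5.1G4 arrays, in order of replicate. Here too the lines did not overlap. The means were -1.33 ± 0.17 (SD, n = 3) and -2.11 ± 0.16 (SD, n = 3), so B16-F1 was ahead by 1.72-fold (a log2 difference of 0.78, SE 0.14, 95% confidence interval 0.43 to 1.14, limma adjusted p = 0.00826), under the minimum fold. With scan as a block the difference was 0.65 and the adjusted p in limma was 0.114, and within the shared scan it was 0.65 with an adjusted p of 0.106.

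The promoters of these 2 detected binding protein genes are shown because only these binding protein genes were detected on every array. Each sequence holds the 250 bases before the RefSeq start site on the GRCm38.p6 build, 5′ to 3′, with matches to any of 5 short motifs in capitals: the GC box with letters GGGCGG, the E-box with letters CACGTG, the M-box core of pigment genes with letters TCATGTG, the TATA box with letters TATAAA and a FOXO site with letters GTAAACA, each searched on both strands.
Igfbp4, chr11:99040994-99041243, plus strand: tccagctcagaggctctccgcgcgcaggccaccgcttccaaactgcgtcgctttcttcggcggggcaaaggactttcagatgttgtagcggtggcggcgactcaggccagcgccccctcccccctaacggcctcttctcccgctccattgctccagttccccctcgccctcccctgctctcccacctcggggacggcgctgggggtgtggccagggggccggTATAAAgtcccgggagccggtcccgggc
Igfbp6, chr15:102143936-102144185, plus strand: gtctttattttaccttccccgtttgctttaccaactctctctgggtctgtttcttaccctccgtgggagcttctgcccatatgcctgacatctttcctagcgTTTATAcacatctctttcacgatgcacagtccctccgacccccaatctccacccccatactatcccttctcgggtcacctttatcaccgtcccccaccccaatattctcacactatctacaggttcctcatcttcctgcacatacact
Both hold a TATA box match, in Igfbp4 starting 28 bases before the start site and in Igfbp6 on the reverse strand starting 148 bases before it. The windows of the other 5 binding protein genes held none, and 12.4% of all 32851 windows held it. A match is a description of the letters and not a measured site.

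The other 5 binding protein genes, Igfbp1, Igfbp2, Igfbp3, Igfbp5 and Igfbp7, were detected on at most 1 array and were not tested. Igfbp3, the main carrier of IGF in serum, read -7.76, -7.95 and -8.15 in B16-F1 and -7.41, -7.26 and -7.36 in D5.1G4, with processed intensities of 5.46 to 10.8. No array detected it, and the order of values at the floor has no meaning. Igfbp5, a binding protein of matrix and bone, read -7.79, -5.86 and -8.00 in B16-F1 and -7.27, -7.31 and -7.46 in D5.1G4 and was likewise detected on 0 arrays, B16-F1 replicate 2 being the highest. Igfbp7, a matrix-bound relative that binds IGF weakly, stayed between -7.81 and -7.18 on the 6 arrays and was detected on none. Its probe, A_55_P2018611, is the only one for the gene here.

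Igfbp1, the insulin-repressed binding protein of liver, was detected on 1 array, B16-F1 replicate 2, at -5.34 and a processed intensity of 33.6, while the other 5 arrays read -7.90 to -7.19. Igfbp2 had 2 probes. One of them, A_66_P135391, was detected on B16-F1 replicate 1 alone, at -5.28, and the B16-F1 arrays ran down to -7.98 while the D5.1G4 arrays read -7.33, -7.28 and -7.44. The other, A_55_P2056729, was detected on 0 arrays and read -7.59 to -6.77. A lone detection near the floor on 1 array of a line was not repeated on the others, so no difference between the lines can be given for these 5 genes. On the chromosomes 4 of them lie in neighbouring pairs, Igfbp2 beside Igfbp5 on chromosome 1 and Igfbp1 beside Igfbp3 on chromosome 11, with no protein-coding gene between them in the RefSeq table, while Igfbp7 lies on chromosome 5 between Polr2b and Adgrl3. Neither pair held a tested gene. Of the genes on their outer sides, Rpl37a next to Igfbp2 and Tns3 next to Igfbp3 were detected on all 6 arrays. Tnp1 next to Igfbp5 was detected on 4 and Adcy1 next to Igfbp1 on 0.

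Igf1, the ligand, was measured by 4 probes that name the same transcript and that did not read alike. The probe with the highest mean, A_55_P2031636, stands for the gene. It was detected on all 3 B16-F1 arrays at -4.07, -3.77 and -4.42 and on 2 D5.1G4 arrays at -4.19 and -3.89, while D5.1G4 replicate 1 read -5.43 and was not detected. The lines overlapped. The difference was 0.42 (SE 0.42, 95% confidence interval -0.61 to 1.44, limma adjusted p = 0.483), an interval that holds both equal levels and a 2-fold difference in B16-F1's favour. Without D5.1G4 replicate 1 the difference was -0.0494 (limma adjusted p = 0.886). Of the further probes, A_55_P2085984 was detected on 2 arrays (B16-F1 replicates 2 and 3, at -4.79 and -5.57), A_55_P2031631 on 1 (B16-F1 replicate 2, at -5.38) and A_55_P2085974 on 0. Levels of different probes cannot be set against each other, since each binds its target with its own strength.

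Irs1, the docking protein first found as a main target of the insulin receptor, had a value that depended on how marked spots were handled. Probe A_52_P175242 read 1.63, 1.73 and 1.76 on the D5.1G4 arrays and 1.18 on B16-F1 replicate 1. On B16-F1 replicates 2 and 3 the scanner software marked the spot as non-uniform, and these 2 values were left out of the fit. With the mark ignored they read 0.55 and 0.47 on the same scale, at processed intensities of 1986 and 2821, and both spots were well above background. On the 75th-percentile scale all 3 B16-F1 spots, marked or not, were thus below all 3 D5.1G4 spots. In processed intensity the lines overlapped, with D5.1G4 replicate 2 at 2776. On the 1 unmarked B16-F1 array against 3 D5.1G4 arrays (1.71 ± 0.07, SD, n = 3) the difference was -0.53 (SE 0.17, 95% confidence interval -1.00 to -0.05, limma adjusted p = 0.0872), which did not pass. With 1 array in that arm, the spread of B16-F1 was not measured. The SE, interval and p rest on the D5.1G4 arrays and on the variance that limma borrows from all features. With marked spots kept it was -0.97 (SE 0.21, limma adjusted p = 0.0138), which passed the adjusted p and fell just short of the minimum fold.

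The further Irs1 probe, A_52_P171212, was dim. It was detected on all 3 D5.1G4 arrays, at -4.02, -4.17 and -4.26, and on 1 B16-F1 array, replicate 1, at -5.22, whereas B16-F1 replicates 2 and 3 read -5.80 and -6.01 and were not detected. The lines did not overlap. In a fit with every probe as a feature of its own (22132 probes, 15.7% called) the fitted log2 difference of this probe was -1.53 (SE 0.22, limma adjusted p = 0.00331). That value leans on the 2 B16-F1 arrays below detection, and the probe passed the filter through D5.1G4, so it is no measured fold. The difference was -1.00 within the shared scan, where the 1 B16-F1 array detected it (limma adjusted p = 0.0300), and -0.34 with normexp background correction of the median spot signal (limma adjusted p = 0.777). Both Irs1 probes read lower in B16-F1, and the call on the dim one was lost in that last setting.

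Irs2, the second docking protein, was detected on every array. Probe A_66_P102260 read -3.05, -2.52 and -1.90 in B16-F1 and -2.33, -3.01 and -2.89 in D5.1G4, so the spread within each line was wide and the lines overlapped. The means were -2.49 ± 0.57 (SD, n = 3) and -2.74 ± 0.36 (SD, n = 3), with a difference of 0.25 (SE 0.33, 95% confidence interval -0.55 to 1.06, limma adjusted p = 0.587). No difference was detectable, and one of 2-fold in B16-F1's favour lies within the interval. Within the shared scan the difference was -0.10. Of the genes next to the substrates on their chromosomes, Col4a1 beside Irs2 was higher in B16-F1 (2.27, limma adjusted p = 0.000574), as was Rhbdd1 beside Irs1 (1.42, limma adjusted p = 0.0107).

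**Figure D2:**
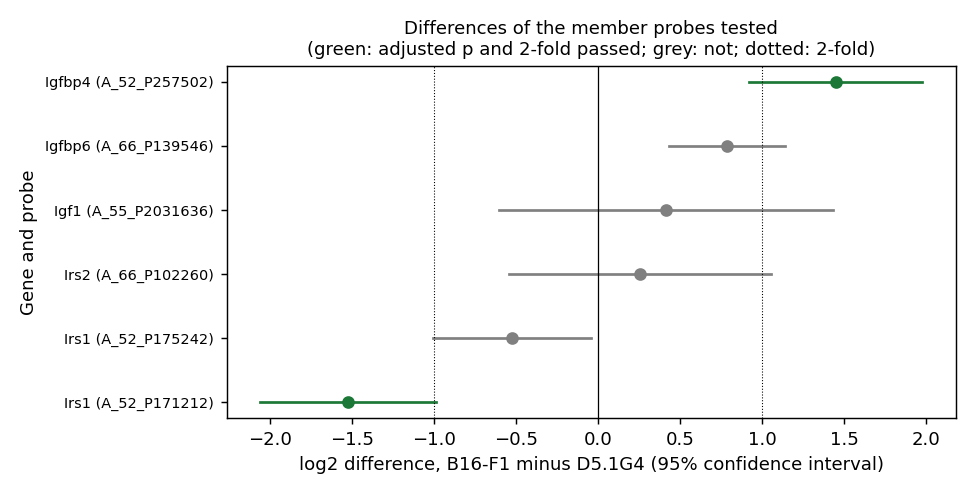
Log2 difference between the lines, B16-F1 minus D5.1G4, with its 95% confidence interval (horizontal axis), for the 6 member probes tested when every probe is a feature (vertical axis). Igfbp4 at 1.45 and the dim Irs1 probe at -1.53, which 1 of 3 B16-F1 arrays detected, are past both thresholds (green), Igfbp6 at 0.78 is above 0 but under 2-fold, and the intervals of Igf1 and Irs2 cross 0.

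The promoters of the 2 substrate genes are printed because both were read in both lines and both windows hold an E-box, the letters CACGTG bound by factors such as MITF and MYC.
Irs1, chr1:82291440-82291689, minus strand: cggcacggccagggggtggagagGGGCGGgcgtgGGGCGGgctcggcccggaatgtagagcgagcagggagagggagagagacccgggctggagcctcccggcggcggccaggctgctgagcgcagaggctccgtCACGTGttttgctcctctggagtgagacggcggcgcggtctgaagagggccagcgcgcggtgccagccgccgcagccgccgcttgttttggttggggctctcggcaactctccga
Irs2, chr8:11008930-11009179, minus strand: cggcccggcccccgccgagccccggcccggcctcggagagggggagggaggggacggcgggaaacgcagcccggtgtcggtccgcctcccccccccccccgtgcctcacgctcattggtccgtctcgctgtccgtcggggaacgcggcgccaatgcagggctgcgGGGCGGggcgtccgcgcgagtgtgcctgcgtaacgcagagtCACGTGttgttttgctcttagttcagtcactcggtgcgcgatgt
The E-box starts 115 bases before the start site in Irs1 and 44 bases before it in Irs2, and no match of one motif overlapped another. Of all windows 6.02% held an E-box and 32.7% a GC box. As the 2 windows were printed for their E-box, the first share is no test of them. The Igf1 window held 0 matches to any of the motifs. Among the binding protein genes an E-box match was found in 1 of the 2 Igfbp2 windows, and GC boxes in Igfbp2 and Igfbp7. The FOXO site and the M-box core were found in none of the 11 member windows, where 3.17% and 3.25% of all windows hold them, and that says only that these letters are not there.

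Upstream of the substrates, the receptor gene Igf1r fell in B16-F1. Its probe read -0.56, -0.47 and -0.61 in B16-F1 and 1.39, 1.23 and 0.91 in D5.1G4, so every B16-F1 array lay below every D5.1G4 array. The signal was 3.29-fold lower (log2 difference -1.72, SE 0.15, limma adjusted p = 0.000591), and -1.63 within the shared scan (limma adjusted p = 0.0204). The insulin receptor gene Insr differed the other way and stopped just under the minimum fold, with -1.22, -1.18 and -0.96 in B16-F1 against -1.85, -2.30 and -2.21 in D5.1G4 (log2 difference 1.00, SE 0.16, limma adjusted p = 0.00487). The Insr difference was 1.03 with scan as a block and within the shared scan, both of which rest on the same 1 B16-F1 array. Insr was called without B16-F1 replicate 1 (1.05), B16-F1 replicate 2 (1.03) or D5.1G4 replicate 1 (1.13). Another Insr probe gave 0.25 (limma adjusted p = 0.247). Igf2r, the receptor that clears IGF-II, read 3.17 ± 0.15 (SD, n = 3) in B16-F1 and 3.61 ± 0.12 (SD, n = 3) in D5.1G4. The difference was -0.44 (limma adjusted p = 0.0440), under the minimum fold. Several settings lost even that p, among them quantile normalization (limma adjusted p = 0.0664), the authors' deposited values (0.0687) and the replicate block (0.0951). Leaving out 1 array gave a limma adjusted p of up to 0.127. Within the shared scan the Igf2r difference was -0.30. The ligand gene Igf2 was detected on the 3 B16-F1 arrays and 0 D5.1G4 arrays, but the lowest detected signal of an array lay lower in B16-F1. Igf2 read -5.44, -5.04 and -5.34 in B16-F1 and -6.86, -5.27 and -5.16 in D5.1G4. These values were all near the floor and overlapped, and no fold can be given (limma adjusted p = 0.453). The insulin genes Ins1 and Ins2 differed by 0.24 and 0.34 (limma adjusted p = 0.675 and 0.505), and Insrr, an orphan relative of the receptors, was detected on 0 arrays. Of the 7 genes of this group 6 were tested, 0 rose, 1 fell and 5 did not pass, so 16.7% were called against 15.2% of all features. Their median difference was 0.29 against -0.00422 over all features. By unadjusted p in limma 3 of the 6 were under 0.05, against 44.9% of all features.

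A list of genes that act on the binding proteins or share a domain with them held the IGFBP protease genes Pappa, Pappa2, Htra1, Htra3 and Adam12, the protease inhibitors Stc1 and Stc2, the serum partner Igfals and relatives with an IGFBP-type domain (Igfbpl1, Kazald1, Esm1 and the Ccn genes). Of 14 genes 7 were tested, and 2 rose and 4 fell, with a median of -1.22. That made 85.7% called, against 15.2% of all features, in a list of few genes. Ccn1, at -0.61 (limma adjusted p = 0.0636), did not pass. Genes could pass the detection filter through the line in which they are high. Kazald1 fell by 1.77 (SE 0.15, limma adjusted p = 0.000528). Htra3 fell by 1.22 (SE 0.19, limma adjusted p = 0.00423), a call that normexp did not keep (-0.75, limma adjusted p = 0.152). Within the shared scan the Htra3 difference was -1.58. Htra1 was detected on 0 B16-F1 arrays and all 3 D5.1G4 arrays and was at least 2.55-fold lower (limma adjusted p = 0.0151), a bound taken from the lowest detected signal of each B16-F1 array. With normexp background correction its fitted log2 difference was -0.46 (limma adjusted p = 0.755). That was not called and was smaller than the bound, which therefore holds for the main processing alone. The Htra1 call did not hold without D5.1G4 replicate 2 (limma adjusted p = 0.0508) or 3 (0.0567) either. Within the shared scan its fitted log2 difference was -3.50, with the B16-F1 array below detection.

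Pappa encodes the metalloprotease that cuts Igfbp4. It read -2.93, -3.38 and -2.36 in B16-F1 and -1.75, -1.60 and 0.06 in D5.1G4, and D5.1G4 replicate 3 stood well above the other arrays of its line. The difference was -1.80 (SE 0.53, limma adjusted p = 0.0434), which did not hold when any B16-F1 array was left out (0.0765, 0.120 and 0.0625 for replicates 1, 2 and 3), nor without D5.1G4 replicate 2 (0.0650) or the arrays of scan 1 (0.197). With scan as a block, within the shared scan, with normexp and with no filter on dim probes its limma adjusted p was 0.127, 0.118, 0.161 and 0.0520. The 2 that rose were Ccn2, connective tissue growth factor (1.45, SE 0.16, limma adjusted p = 0.00138), and Adam12 (1.24, SE 0.29, adjusted p = 0.0208). Another Adam12 probe gave 1.82. The Adam12 call did not hold with scan as a block (0.75, limma adjusted p = 0.143), within the shared scan (0.75, under the minimum fold) or without D5.1G4 replicate 1 (0.96, also under it). Nor did it hold with B16-F1 replicate 2 left out (limma adjusted p = 0.0580), with normexp (0.251) or without the arrays of scan 1 (0.172). Stc1, Stc2, Igfbpl1, Ccn3 and Esm1 were detected on 0 arrays, Igfals on 1 and Pappa2 on 2.

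All 3 IGF2 mRNA-binding protein genes, whose products bind the Igf2 transcript and others, were called, in different directions. Over all features 15.2% were called. Igf2bp1 read -1.05, -1.07 and -1.37 in B16-F1 and -5.36, -5.40 and -5.54 in D5.1G4, where no array detected it. By the same kind of bound B16-F1 was higher by at least 15.7-fold (limma adjusted p = 2.5e-05). With normexp the fitted log2 difference was 2.59 (limma adjusted p = 0.00628), still called but smaller than that bound, which therefore holds for the main processing alone. Igf2bp3 ran the opposite way, at -2.73, -3.05 and -3.02 in B16-F1 and -0.80, -0.76 and -0.67 in D5.1G4, 4.56-fold lower (log2 difference -2.19, SE 0.13, limma adjusted p = 0.000144). Igf2bp2 fell by 1.27 (SE 0.21, limma adjusted p = 0.00559), with another probe at -1.34. Its difference with scan as a block was -0.85 (limma adjusted p = 0.0728), within the shared scan -0.85 (under the minimum fold), without the arrays of scan 1 -0.90 (limma adjusted p = 0.0534) and with normexp -0.81 (0.214), none of them called.

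The core of the PI3K, AKT and mTOR branch, which carries the signal on from Irs1 and Irs2, showed no called gene as processed here. Of 29 genes 28 were tested with limma and 0 rose and 0 fell by the fold and adjusted p used, where 15.2% of all features were called. The differences of Sos1 (1.28, limma adjusted p = 0.0898) and Rictor (1.24, limma adjusted p = 0.19) were past 2-fold but did not pass the adjusted p. The median of the core was 0.16. With scan as a block 1 of its genes was called, within the shared scan 2, without D5.1G4 replicate 1 or 2 there were 2 and 1, and with a gene's probes averaged 1. By adjusted p alone 10 of 28 passed, 3 higher and 7 lower, and by unadjusted p 15 were under 0.05, beside 34.9% and 44.9% of all features. The kinase gene Pik3ca (0.82, adjusted p = 0.0128) and the adaptor genes Grb2 (0.79) and Shc1 (0.55) were on the higher side, and among those on the lower side were Mtor (-0.70, limma adjusted p = 0.00879), Pik3cb (-0.62), Rps6kb1 (-0.61), Akt1 (-0.46), Gsk3a (-0.43) and Tsc1 (-0.41). Irs3 and Irs4, the remaining substrate genes of the family, were detected on all 6 arrays with overlapping lines and differences of 0.16 and 0.45 (limma adjusted p = 0.760 and 0.231). Of the 15 genes that restrain the pathway 13 were tested and 1 was called (7.69%, against 15.2% of all features). It was the adaptor gene Sh2b3, which fell by 1.46 (SE 0.14, limma adjusted p = 0.00081). The other 12 did not pass both thresholds. By adjusted p alone 6 of the 13 passed, and by unadjusted p 10 were under 0.05, beside 34.9% and 44.9% of all features. Over all 5 lists 11 of 57 tested genes were called, 3 higher and 8 lower (19.3%, against 15.2% of all features).

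**Figure D3:**
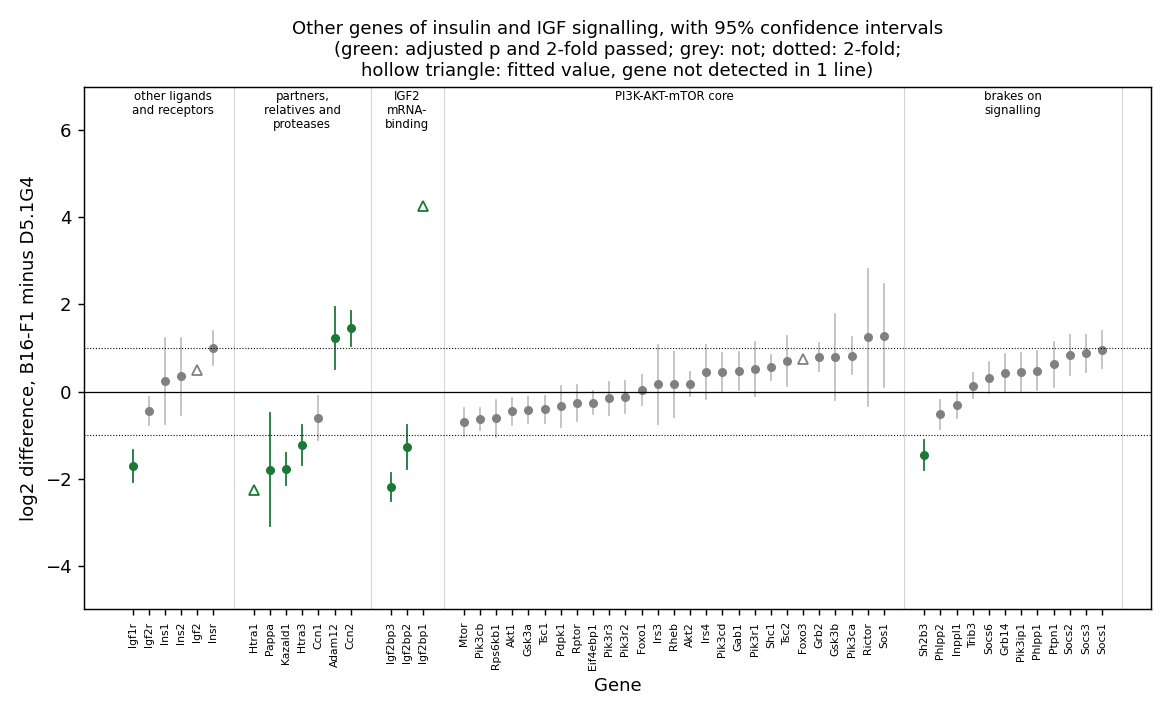
Log2 difference between the lines, B16-F1 minus D5.1G4 (vertical axis), with 95% confidence intervals, for the other genes of the pathway that were tested and are reported here (horizontal axis), in 5 groups; green genes passed the adjusted p and the 2-fold minimum, grey ones did not, and dotted lines mark 2-fold. Hollow triangles are fitted values, without interval, of Htra1, Igf2, Igf2bp1 and Foxo3, each undetected in 1 line, whose place on the axis has no rank. Igf2bp3 at -2.19 and Igf1r at -1.72 are green on the lower side, Ccn2 at 1.45 on the higher, and the genes of the PI3K, AKT and mTOR core are grey in this fit.

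The 6 values of Igfbp4, each set against its own D5.1G4 mean, were compared with those of 12110 other named genes measured on every array. The 3 closest were Pcdhb16, Tmem267 and Neurl2, with root mean square differences of 0.111, 0.115 and 0.116 log2 units over the 6 arrays. With 6 arrays in 2 lines this likeness is a description. Next to Igfbp4 on chromosome 11 lies Top2a, detected on all 6 arrays with a difference of 0.02 (limma adjusted p = 0.913), and Tns4, detected on 1 array. Next to Igfbp6 on chromosome 15 lie Spryd3 (0.26, limma adjusted p = 0.408) and Soat2 (0.91, adjusted p = 0.0110), neither called. The reference genes Actb and Gapdh differed by -0.41 and -0.57 (limma adjusted p = 0.0409 and 0.0901), neither past the minimum fold.

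**Figure D4:**
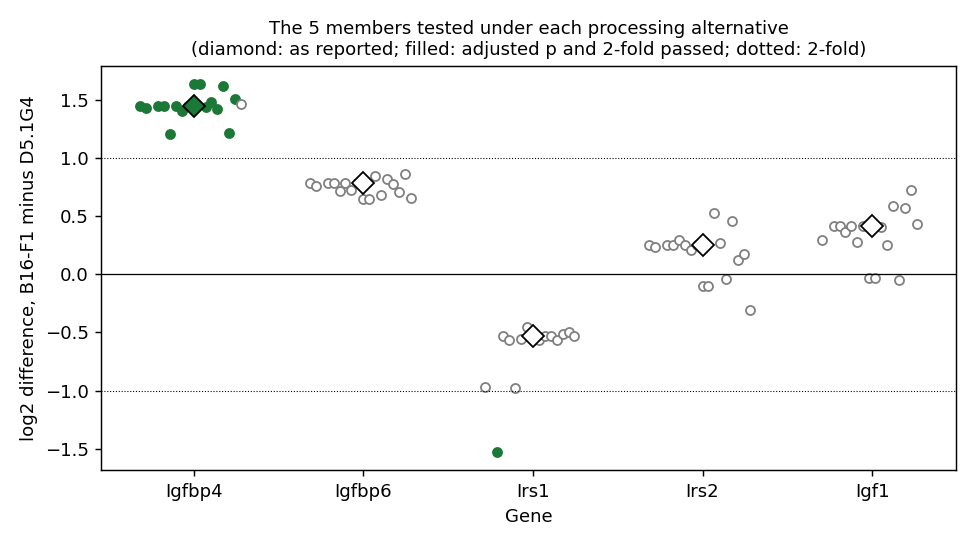
Log2 difference between the lines, B16-F1 minus D5.1G4 (vertical axis), for the 5 members tested (horizontal axis) as reported (diamond) and under each processing alternative that gave a value (circles); filled marks passed the adjusted p and the 2-fold minimum. Igfbp4 stayed between 1.20 and 1.64 and Igfbp6 between 0.65 and 0.87. The bright Irs1 probe lies between -0.97 and -0.45, and the Irs1 mark at -1.53 is the dim probe standing for the gene. The values of Irs2 and Igf1 lie on both sides of 0.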

How the data were processed

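Scanner files of 6 one-colour arrays held, for each spot, a linear intensity and flags of 0 or 1, made with Agilent Feature Extraction 11.0.1.1, per the file headers. The deposited intensity was background-subtracted and detrended within the array, with nothing done between arrays. The authors' deposited table of log2 values, whose normalization the sources used here do not give, served as an alternative. The array annotation is on mm9. Names came from the RefSeq table of GRCm38.p6 through accessions (27234 probes matched, 69.1%), and promoters from RefSeq on that build.

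Log2 of the processed intensity minus the 75th percentile of the array was used. Spots marked non-uniform or outlier were left out, 0.674% to 1.58% of an array, spots of a probe were averaged, and the probe with the highest mean stood for a gene. Features detected on at least 3 of 6 arrays were tested with limma 3.58.1 in R 4.3.3 (lmFit, eBayes), 2-sided, with Benjamini-Hochberg adjustment over all of them, and called at an adjusted p of 0.05 and a fold of 2, the sizes the series text sets. The fit was tested on simulated data. All members, Igf1r, Insr, Igf2, Igf2r, Actb and Gapdh are named whatever their values, with up to 4 called genes of each list and the 3 genes most like a called member. Adam12, Htra3, Ccn1 and the PI3K core genes were named after their values were seen, to complete a count. Some pathway genes are counted but not reported by name here. Members and lists were chosen with earlier results of these data known. The number of arrays limits the precision.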

Additional observations from a re-analysis of the deposited data

How the results depend on the processing

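Igfbp4 stayed higher in B16-F1 in all 17 alternatives (1.20 to 1.64) and lost its call only without the 2 arrays of scan 1, a setting chosen after seeing the data (1.47, adjusted p = 0.0697 in limma), where the count of members called was 0 in place of 1. With 1 B16-F1 array left, its spread is assumed to be that of the other line. Averaging the probes measured on every array leaves the dim Irs1 probe to stand for Irs1, which was then called at -1.53, giving 2 members called. With no minimum fold 2 members, 28 pathway genes and 6434 features passed. Normexp, run on the median in place of the mean spot signal and so added after seeing the data, called 1255 features and 6 pathway genes and gave -0.34 for the dim Irs1 probe. The cause was not tested.

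The median difference of all features moved from -0.00422 to -0.148 with scan as a block and within scan 2, to -0.152 without the arrays of scan 1 and to -0.169 with no filter on dim probes. Values that were never called changed sign. Igf1 read -0.0334 with scan as a block and within scan 2, and Irs2 -0.10 in both and -0.30 without the arrays of scan 1. Igf2 read -0.23 with scan as a block and within scan 2. Leaving out 1 array at a time gave -0.0494 to 0.72 for Igf1, -0.0429 to 0.53 for Irs2 and -0.0607 to 0.79 for Igf2, whose D5.1G4 values are all below detection. It gave 1 member called each time, 2532 to 3375 features and 10 to 14 pathway genes. The sign of Igf1 and Igf2 turned without D5.1G4 replicate 1, and that of Irs2 without B16-F1 replicate 3. No value could be had for the bright Irs1 probe without B16-F1 replicate 1.

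Same-numbered replicates did not deviate together (correlations of -0.39, -0.03 and -0.30). With 3 arrays to a line, divided between scans, these values cannot decide whether the numbers pair the samples. With the replicate block 2584 features, 1 member and 12 pathway genes, 1 of them in the PI3K core, were called, and Igfbp4 was 1.45 (adjusted p = 0.0175 in limma). For Irs1 the replicate block left no residual degrees of freedom, so its -0.45 has no test. Probes near the floor limit what can be said of Igf1 and of 5 binding protein genes.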
